A study of Mus musculus with 8 samples.

Results

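Sharp promoters are, as the term is used here, CAGE tag clusters at a gene start whose tags begin at a few neighbouring bases. In wild-type E14 mouse embryonic stem cells (mESCs), 3969 of 32857 tag clusters met this definition. They were selected on the E14 positions alone. The dominant TSS, the base at which most tags of a cluster begin, had to lie on the same strand within 500 bp of the 5′-most annotated start of a protein-coding gene (GENCODE release M21, build GRCm38, which is mm10), and the interquantile width had to be at most 10 bp. The interquantile width is the stretch between the 0.1 and 0.9 quantiles of a cluster's tags, so it leaves out stray tags at both edges. The position and width of the E14 clusters therefore chose the members, and both are given below as a description. The remaining 9888 of 13857 coding promoter clusters were over 10 bp wide and are called broad here.

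Nuclear RNA was profiled by CAGE-seq, which captures the 5′ cap of RNA and reads the first bases behind it, in cells grown on gelatine in serum with LIF. Wild-type E14 had 3 libraries, and the double knockout clones of Pwwp2a and Pwwp2b (Pwwp2a/b DKO) derived from E14 had 2 libraries for A1 and 3 for C7. Each DKO line is a single clone. The authors merged the libraries of a line, so every value below is 1 per line with no replicate error, and no difference between lines could be tested against replicates. Every score in the tag cluster tracks used here is 0, and the signal tracks were not used here. Tags per cluster are therefore not known, and a narrow width that comes from few tags cannot be told apart from focused initiation.

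PWWP2A and PWWP2B read H3K36me3 in gene bodies and bring histone deacetylases there. Mammalian promoters come in a focused form, often with a TATA box that fixes the distance to the start, and in a dispersed form in CpG-rich sequence where many neighbouring bases are used. Genes of the translation machinery form a further class, whose mRNAs begin with a cytosine followed by a run of pyrimidines (the TOP sequence).

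Sequences around the dominant TSS are shown for sets of sharp clusters among the genes chosen for naming. All are printed 5′ to 3′ on the strand of transcription and hold 40 bases upstream and 10 bases from the dominant TSS onward (GRCm38, RefSeq promoter windows and GENCODE M21 transcripts). Capitals mark the TATAA motif where it is present and the last base before the dominant TSS together with the dominant TSS itself. The first set is shown because its members carry TATAA and belong to histone, immediate early, pluripotency, chaperone, cytoskeletal and metallothionein genes.
Hist1h1a (chr13:23763628-23763677, plus strand): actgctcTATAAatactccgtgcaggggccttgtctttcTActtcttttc
Hist1h1b (chr13:21780616-21780665, minus strand): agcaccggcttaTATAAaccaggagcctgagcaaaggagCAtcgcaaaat
Hist1h1e (chr13:23622546-23622595, minus strand): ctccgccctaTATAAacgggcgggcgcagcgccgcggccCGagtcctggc
Fos (chr12:85473850-85473899, plus strand): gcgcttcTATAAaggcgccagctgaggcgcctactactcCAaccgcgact
Junb (chr8:84978709-84978758, minus strand): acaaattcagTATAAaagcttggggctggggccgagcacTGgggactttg
Myc (chr15:61985510-61985559, plus strand): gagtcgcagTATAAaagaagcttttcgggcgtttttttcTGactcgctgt
Klf4 (chr4:55532466-55532515, minus strand): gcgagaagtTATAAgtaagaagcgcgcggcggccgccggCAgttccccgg
Hspa5 (chr2:34772052-34772101, plus strand): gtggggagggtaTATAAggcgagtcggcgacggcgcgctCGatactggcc
Tuba1c (chr15:99030281-99030330, plus strand): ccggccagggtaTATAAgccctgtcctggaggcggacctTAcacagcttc
Vim (chr2:13574271-13574320, plus strand): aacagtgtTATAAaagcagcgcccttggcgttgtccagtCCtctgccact
Mt2 (chr8:94172744-94172793, plus strand): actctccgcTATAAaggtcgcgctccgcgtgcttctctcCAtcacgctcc

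The second set is shown because transcription began at a cytosine followed by pyrimidines. It holds ribosomal protein genes, translation factors and the chaperone Hsp90ab1. Rpl10, Eef2 and Eef1b2 also carried TATAA.
Rpl10 (chrX:74270817-74270866, plus strand): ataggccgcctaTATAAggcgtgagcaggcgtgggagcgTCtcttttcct
Rpl10a (chr17:28328543-28328592, plus strand): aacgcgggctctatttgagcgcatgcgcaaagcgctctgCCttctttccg
Rpl11 (chr4:136053364-136053413, minus strand): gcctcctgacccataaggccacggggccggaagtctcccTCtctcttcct
Eef2 (chr10:81176606-81176655, plus strand): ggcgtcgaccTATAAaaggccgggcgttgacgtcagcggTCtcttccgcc
Eef1b2 (chr1:63177089-63177138, plus strand): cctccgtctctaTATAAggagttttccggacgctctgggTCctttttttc
Eif3f (chr7:108934377-108934426, plus strand): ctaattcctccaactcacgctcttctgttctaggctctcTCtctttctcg
Hsp90ab1 (chr17:45573257-45573306, minus strand): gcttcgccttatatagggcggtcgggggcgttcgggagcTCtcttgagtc

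The third set is shown because the sharp cluster lay inside the coding sequence of a linker histone gene, downstream of the promoter cluster printed above. The base before the dominant TSS was G and the dominant TSS itself was C in each. The windows are alike, with 42 to 49 of 50 bases identical between pairs, so they are not independent examples. Other downstream sharp clusters of these genes had CA (Hist1h1a, 68 bp), TA and GA (Hist1h1b, 115 and 137 bp) or AG and GG (Hist1h1e, 126 and 489 bp). GC recurred at 472 bp in Hist1h1a and 159 bp in Hist1h1e. Hist1h1c, a further linker histone gene, had its only downstream sharp cluster at 128 bp, with CG, and is not shown.
Hist1h1a (chr13:23763976-23764025, plus strand): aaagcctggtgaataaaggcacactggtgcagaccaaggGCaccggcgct
Hist1h1b (chr13:21780252-21780301, minus strand): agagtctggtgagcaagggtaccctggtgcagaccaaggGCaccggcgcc
Hist1h1e (chr13:23622195-23622244, minus strand): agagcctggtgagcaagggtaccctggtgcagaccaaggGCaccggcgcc

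The fourth set gives sharp promoters of housekeeping genes that held neither motif. They serve as a contrast, with the proteasome gene Psma2 and the respiratory complex I gene Ndufa9.
Psma2 (chr13:14613212-14613261, plus strand): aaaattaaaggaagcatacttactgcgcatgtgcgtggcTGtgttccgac
Ndufa9 (chr6:126849116-126849165, minus strand): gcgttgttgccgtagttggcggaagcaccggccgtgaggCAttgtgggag

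Sharp clusters made up 28.6% of coding promoter clusters in E14 (3969 of 13857, 95% Wilson interval 27.9 to 29.4%, counting error only). The clones were close to this, with 3890 of 13860 in A1 (28.1%) and 3900 of 13844 in C7 (28.2%). By chromosome the E14 share ran from 25.9% on chromosome 5 to 33.3% on chromosome 13, with a median of 28.6% over the 19 autosomes and X. Chromosome Y had 2 sharp clusters of 8. The commonest interquantile width was 4 bp (719 clusters), 207 clusters were 1 bp wide, and the last width inside the limit, 10 bp, held 222 clusters against 244 at 11 bp just outside. Further out, 156 clusters were 16 bp wide and 264 were 21 bp wide. The limit thus lies at the near side of a shallow dip, with no empty gap between sharp and broad clusters. Including stray tags, the median length of a sharp cluster was 5 bp (quartiles 3 and 9 bp) against 56 bp for broad clusters. 3204 sharp clusters were at most 10 bp long in all, while 460 were over 20 bp long and held most of their tags in a short stretch.

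**Figure D1:**
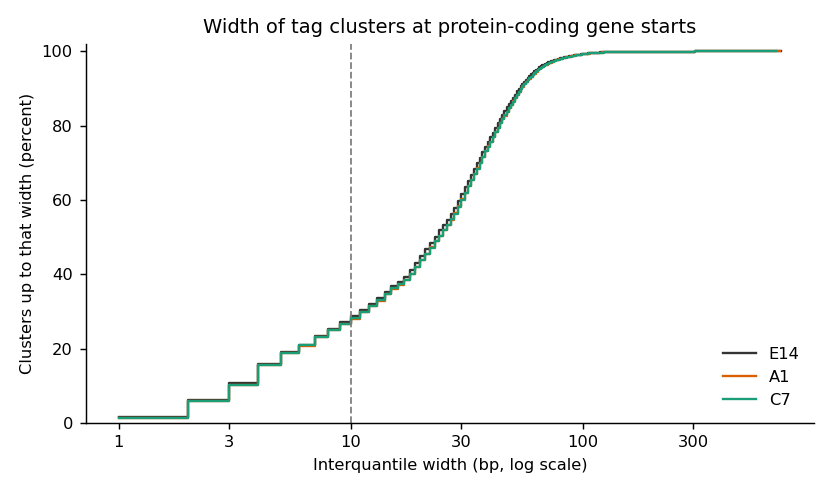
Cumulative percent of coding promoter clusters (vertical axis) up to each interquantile width in bp (horizontal axis, log scale) in E14, A1 and C7. The dashed line marks 10 bp, where the curves reach 28.6% in E14, 28.1% in A1 and 28.2% in C7 without a step between sharp and broad clusters.

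The 3969 clusters belonged to 3200 genes, which is 32.8% of the 9752 protein-coding genes with any promoter cluster in E14. 1460 of these genes had sharp clusters alone, and 1740 had a broad cluster as well. 2579 genes had 1 sharp cluster and 4 genes had 5. These 4 were H2afx, the histone variant gene of the DNA damage response, Hist1h1e, which codes for a linker histone, Ooep, an oocyte and embryo gene, and Trps1, a GATA-type repressor gene. Cbfb, which codes for the partner subunit of RUNX factors, was 1 of 14 genes with 4 and is named because ties were ordered by name. Of the sharp clusters, 68 lay within 500 bp of more than 1 gene start and were given to the nearest. The mitochondrial genome held 9 sharp clusters of 31 coding promoter clusters (29.0%, against 28.6% over all), at mt-Co1, mt-Nd1, mt-Nd2, mt-Nd5 and mt-Nd6.

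The dominant TSS of sharp clusters lay a median of 39 bp downstream of the annotated gene start (quartiles 0 and 152 bp). The median for broad clusters was 36 bp (quartiles 7 and 107 bp). Sharp clusters were more spread out. 43.9% lay within 50 bp of the start against 54.5% of broad clusters, and 24.5% lay upstream of it against 15.3%. Clusters of genes with sharp clusters alone were nearer to the start, with 62.0% within 50 bp, than sharp clusters beside a broad one, with 29.3%. Of the latter, 1223 of 2191 (55.8%) lay downstream of the nearest broad dominant TSS, and the median distance to it was 81 bp. In the annotation of the own gene, 65.2% of sharp dominant TSSs fell in exons outside the coding sequence, 6.25% in coding sequence and 4.08% in introns. For broad clusters these shares were 79.9%, 3.21% and 1.56%.

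**Figure D2:**
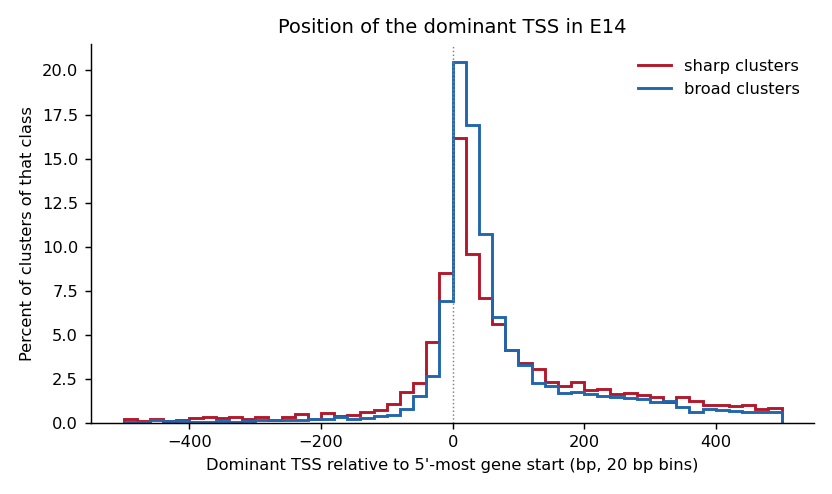
Percent of sharp and broad clusters in E14 (vertical axis) by the distance of the dominant TSS from the 5′-most gene start (horizontal axis, bp, bins of 20 bp, downstream positive). Both classes peak just downstream of the start, and sharp clusters have the wider spread, with 43.9% within 50 bp against 54.5% of broad clusters.

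The TATAA motif was read on the strand of transcription between 35 and 21 bases upstream of the dominant TSS. It was present at 255 of 3236 sharp clusters with a complete sequence window (7.88%, Wilson 7.00 to 8.86%) and at 47 of 8547 broad clusters (0.550%, Wilson 0.414 to 0.730%). Over all coding promoter clusters the share was 2.56%. The sharp share was above the broad share on 19 of 20 chromosomes. It was 7.97% in A1 and 7.82% in C7, against 0.602% and 0.615% at broad clusters of these lines. Where the motif was present its first base was most often 30 bases upstream (70 windows), followed by 31 bases (53 windows) and 29 bases (37 windows). Windows were complete for 81.5% of sharp and 86.4% of broad clusters, and for only 65.1% of sharp clusters upstream of the annotated gene, so the shares describe mainly clusters inside annotated transcripts.

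**Figure D3:**
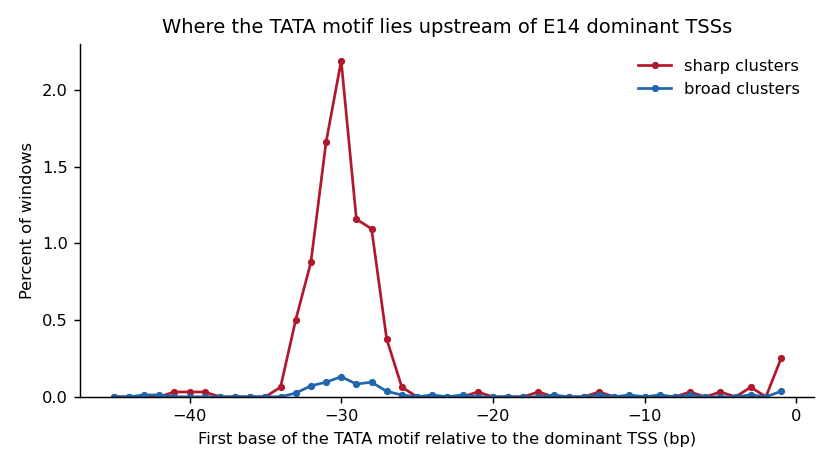
Percent of E14 sequence windows (vertical axis) in which the TATAA motif begins at each base relative to the dominant TSS (horizontal axis, bp, upstream negative), for sharp and broad clusters. Sharp clusters peak 30 bases upstream with 70 windows, and broad clusters stay below them at that base with 11 windows.

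Sharp clusters differed among themselves in this motif. It was present at 13.6% of clusters of genes with sharp clusters alone (195 of 1434) and at 3.33% of sharp clusters beside a broad one (60 of 1802). By width it was present at 8.24% of clusters of 1 to 2 bp, 11.6% of those of 3 to 5 bp and 2.75% of those of 6 to 10 bp. Sharp clusters whose whole length was over 10 bp held it at 18.0% (117 of 651), compared with 5.34% (138 of 2585) of the shorter ones. The longer form TATAAA was present at 4.94% of sharp and 0.222% of broad clusters.

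The base pair at the start also differed. Most RNA polymerase II transcripts begin at a purine that follows a pyrimidine, and 73.8% of sharp clusters had this pair (2520 of 3415) against 82.7% of broad clusters. The share was lower for sharp clusters on 20 of 20 chromosomes and fell to 62.1% at clusters of 1 to 2 bp. CA, the commonest form of the initiator, was present at 36.2% of sharp and 33.7% of broad clusters. GG was present at 5.04% of sharp and 3.44% of broad clusters and reached 9.09% at those of 1 to 2 bp. A cytosine followed by 4 pyrimidines, the TOP-like start, was present at 5.36% of sharp and 3.47% of broad clusters, and at 10.0% of sharp clusters over 10 bp long in all. GC content over the window from 35 bases upstream to 10 bases downstream had a median of 64.4% at sharp and 66.7% at broad clusters, and both had a median of 4 CpG.

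Clusters inside coding sequence, sharp and broad, had another start pair than those in exons outside it. Among 244 sharp clusters in coding sequence with bases known, 45.1% had a pyrimidine followed by a purine and 17.6% had GG, compared with 76.4% and 4.24% of the 2475 sharp clusters in exons outside the coding sequence. TATAA was present at 4 of 236 of them (1.69%). For broad clusters the pyrimidine followed by a purine was present at 63.8% in coding sequence and 83.9% in exons outside it, and GG at 7.94% and 3.30%.

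Histone genes show both kinds within a single transcript. Hist1h1e had a TATAA cluster 3 bp downstream of its annotated start, 4 bp wide in E14, A1 and C7, with the same dominant TSS in each. It had 4 further sharp clusters 126, 159, 354 and 489 bp downstream, none with TATAA. Hist1h1a likewise began 2 bp downstream with a width of 3 bp in each line and had sharp clusters 68, 350 and 472 bp downstream, and Hist1h1b began at its annotated start base with a width of 5 bp in each line. Hist1h1c began 1 bp upstream of its annotated start with a width of 1 bp in each line, but without TATAA. Its other sharp cluster lay 128 bp downstream, 6 bp wide in each line. The clusters at 350 bp in Hist1h1a, 364 bp in Hist1h1b and 354 bp in Hist1h1e all were 2 bp wide in E14 and kept their dominant TSS in both clones. Some other internal clusters did not, among them those of Hist1h1a at 68 bp (3 bp upstream in both clones) and of Hist1h1b at 115 bp (2 bp upstream in both clones) and 137 bp (8 bp downstream in A1 and 5 bp in C7). The printed 50 bp windows of the first 3 clusters matched at 49 bases between Hist1h1b and Hist1h1e, 43 between Hist1h1a and Hist1h1e and 42 between Hist1h1a and Hist1h1b. These clusters were singled out after their values were seen, and reads of such similar genes can be misassigned, so each is uncertain on its own.

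Gene groups differed widely in how often they used a sharp promoter, against 32.8% over all genes with a cluster. Replication-dependent histone genes, which supply new chromatin in S phase, stood highest with 55 of 58 (94.8%), and 38 of the 58 had sharp clusters alone. Immediate early genes, which respond to growth signals without new protein synthesis, followed with 9 of 11, all 9 with sharp clusters alone. Cytosolic ribosomal protein genes had 61 of 79 (77.2%) and core pluripotency genes 16 of 22 (72.7%). Translation factor and other TOP genes had 11 of 17, cytoskeleton and matrix genes 14 of 23, genes of NuRD, the chromatin complex that shares subunits with PWWP2A/B, 7 of 12, and heat shock and chaperone genes 11 of 19 (57.9%). With a window of 100 bp these 4 groups had 42.9%, 43.8%, 36.4% and 31.2%, while histone genes had 93.0% and immediate early genes 81.8%. No share over all genes was worked out for that window, so these values have no background beside them. Lowest in E14 were the proteasome subunits with 6 of 30 (20.0%), DNA replication genes with 4 of 18 (22.2%), nuclear oxidative phosphorylation genes with 22 of 73 (30.1%) and metallothionein, ferritin and other inducible genes with 4 of 13 (30.8%). None of 20 developmental transcription factor genes had a promoter cluster in any line. The order at the low end depends on the definition. When a gene was counted by its nearest cluster alone, the shares were 13.3% for proteasome, 5.56% for DNA replication and 9.59% for oxidative phosphorylation genes, against 21.1% over all genes. Width was the selecting value, so these counts describe the groups and were not tested.

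**Figure D4:**
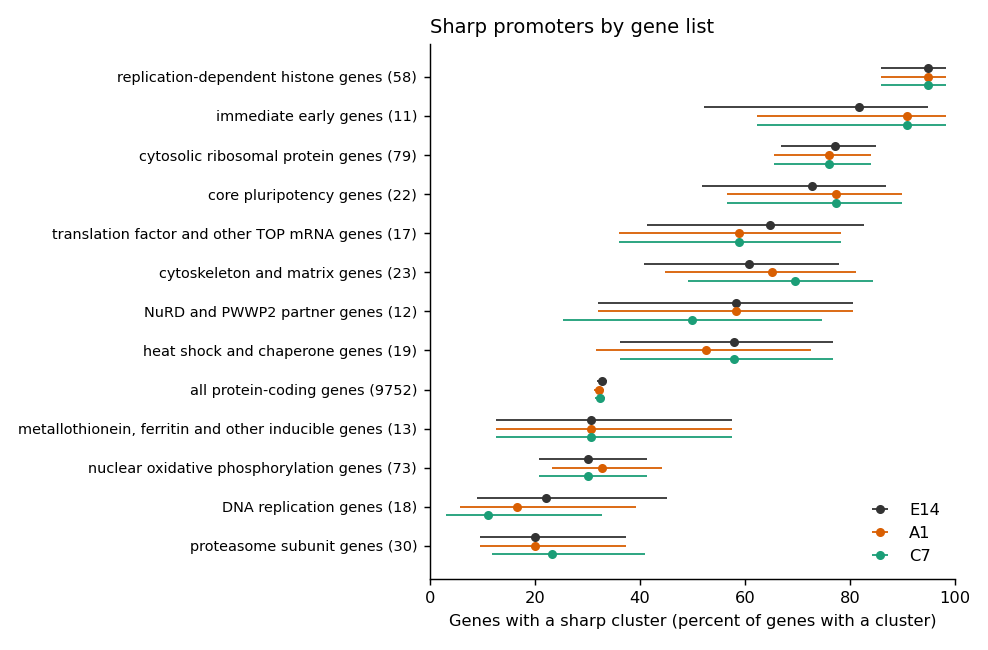
Percent of genes with at least 1 sharp cluster among genes of each list with a promoter cluster (horizontal axis), in E14, A1 and C7, with 95% Wilson intervals as bars and the number of genes with a cluster in E14 in brackets. Histone genes stand highest (94.8% in each line), the lowest are proteasome genes in E14 (20.0%) and DNA replication genes in A1 (16.7%) and C7 (11.1%), and the intervals of the 3 lines overlap in every list.

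The groups with many sharp promoters differed in how often they held each sequence, and some held both. TATAA was present at a sharp cluster of 33 of 53 histone genes with a window, 7 of 8 immediate early genes, 5 of 12 cytoskeleton and matrix genes, 4 of 11 pluripotency genes, 4 of 9 translation factor and other TOP genes and 2 of 10 chaperone genes. At ribosomal protein genes it was present in 10 of 52, whereas 36 of 52 had the TOP-like start, as had 8 of 9 translation factor and other TOP genes and 3 of 10 chaperone genes. Across all genes with a sharp cluster and a window, TATAA was present in 255 of 2669 (9.55%) and the TOP-like start in 169 (6.33%). TATAA was present at none of 5 proteasome, 3 DNA replication, 19 oxidative phosphorylation and 6 NuRD genes with a window, and the TOP-like start at 1 of them, an oxidative phosphorylation gene.

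Among pluripotency genes, Klf4 had a TATAA cluster 9 bp upstream of its annotated start that was 4 bp wide in all 3 lines. A second Klf4 cluster 39 bp upstream was 9 bp wide in E14 and A1 and 26 bp in C7. Nanog had its only promoter cluster 105 bp downstream, 2 bp wide in each line with an unchanged dominant TSS and no TATAA. Pou5f1, the gene of the central pluripotency factor OCT4, had its cluster nearest the start in the broad class (31 bp in each line). Its sharp clusters lay 102 bp downstream, 8 bp wide in each line, and 446 bp downstream, 5 bp wide in each line. Zfp42 was arranged in the same way, with a 71 bp wide cluster 19 bp downstream and a sharp cluster 65 bp downstream of 5, 4 and 5 bp in E14, A1 and C7.

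The immediate early genes Fos, Junb and Ier2 each had a single sharp cluster whose dominant TSS was the annotated start base. Fos was 2 bp wide in E14, 3 bp in A1 and 2 bp in C7. Junb was 5, 6 and 6 bp wide, and Ier2 was 5 bp wide in each line. Myc had a cluster 5 bp upstream of the annotated start and a TATAA cluster 159 bp downstream that was 2 bp wide in each line. All 5 clusters kept their dominant TSS in both clones.

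At ribosomal protein genes 67 of 91 sharp clusters (73.6%) kept the dominant TSS in both clones, and at translation factor and other TOP genes 15 of 21 (71.4%), close to the 70.0% over all sharp clusters matched in both. Rpl10, Rpl10a and Rpl11, subunits of the large ribosomal subunit, had widths of 3, 4 and 7 bp, the same in each line. The clusters themselves were 88, 99 and 101 bp long, so the narrow width reflects where most tags lay. Eef2, the elongation factor that moves the ribosome along, was 1 bp wide in E14 and C7 and 2 bp in A1, within a cluster of 35 bp. Eif3f, an initiation factor subunit, was 5, 6 and 6 bp wide. Dominant TSSs were the same base in the 3 lines for these 5 genes. Rpl12, a further large subunit gene, was arranged differently. Its sharp clusters were 5 bp wide upstream of the annotated start and 1 bp wide 272 bp downstream, in each line. They had TG and GT at the start, so neither had the TOP-like start, and neither had TATAA. Broad clusters of 35 and 22 bp in E14 lay between them, 153 and 218 bp downstream. At Eef1g, a subunit of the elongation factor complex, the sharp cluster 186 bp downstream had its dominant TSS 1 bp upstream in A1 and 1 bp downstream in C7.

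Within 50 bp of the annotated start lay 5 of 13 sharp clusters of chaperone genes (38.5%) and 4 of 17 of cytoskeleton and matrix genes (23.5%), against 43.9% of all. The TATAA cluster of Hspa5, the chaperone of the endoplasmic reticulum, lay 122 bp downstream and was 6, 5 and 6 bp wide in E14, A1 and C7. Hspa8 lay 292 bp downstream with 4, 5 and 5 bp, Vim, the intermediate filament gene, lay 384 bp downstream with 5 bp in each line, and Tuba1c lay 430 bp downstream with 3 bp in each line. Nearer to it, Hsp90ab1 lay 5 bp downstream with 7 bp in each line, and Hsp90aa1 lay 44 bp downstream with 7 bp in E14 and A1 and 6 bp in C7. Actb and Actg1, the cytoplasmic actins, lay 29 and 50 bp downstream with widths of 5 and 7 bp in each line. Measured to the nearest start of any coding transcript, the median distance of all sharp clusters was 2 bp.

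Of genes with a sharp cluster, 1460 of 3200 had no broad one beside it. This held for 2 of 22 oxidative phosphorylation genes, 2 of 6 proteasome genes, 1 of 7 NuRD genes and 0 of 4 DNA replication genes. It also held for 28 of 61 cytosolic ribosomal protein genes and 5 of 11 translation factor and other TOP genes, close to the share over all genes. At Mcm4, a subunit of the replicative helicase, a broad cluster of 42 bp lay 53 bp downstream of the start in E14, and the sharp cluster, 1 bp wide in E14, lay 266 bp downstream and was 5 bp wide in both clones. Rbbp7 had a 77 bp wide cluster at its start base and a 2 bp sharp cluster 269 bp downstream with GG at the start. Chd4, the helicase of the canonical NuRD complex, had a sharp cluster alone, 6 bp wide in E14, 7 bp in A1 and 28 bp in C7.

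The targeted genes gave no check of the deletion. Pwwp2a had 1 promoter cluster, of 36 bp in E14 and A1 and 35 bp in C7, at chr11:43681990-43682032 on the plus strand with the same dominant TSS in all lines, and it was not sharp. Pwwp2b had no promoter cluster in any line. A start site can persist when the coding sequence downstream of it is disrupted. Of 10 embryonic stem cell markers, 9 had a promoter cluster in each line, Esrrb being without one in the window. Mesoderm and trophectoderm markers had 0 of 4 and 0 of 3, and primitive endoderm markers 1 of 4 (Sox7). Fibroblast markers had 2 of 4 (Col1a1 and Thy1) and two-cell-like markers 2 of 4 (Zscan4c and Zscan4d), in every line alike.

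Nearly all sharp clusters of E14 were found again in the Pwwp2a/b DKO clones, by at least 1 bp of overlap on the same strand. In A1 3921 were matched (98.8%) and 48 were not (1.21%, against 0.709% of all E14 clusters). In C7 3925 were matched (98.9%) and 44 were not (1.11%, against 0.749% of all E14 clusters). Broad clusters were matched at 99.9% in both clones. The outer bounds were identical for 99.3% of matched sharp clusters in A1 and 99.4% in C7, so a match says little about where within the cluster transcription began. For broad clusters these shares were 98.7% and 99.5%. Whether the bounds were set for each line separately is not known here, so a match is only weak evidence that a promoter was found again. 21 sharp clusters were unmatched in both clones (0.529%, against 0.231% of all E14 clusters), and 20 of these were 1 base long. The 10 nearest an annotated start belonged to A830018L16Rik, Trim63, Kif21b, Nxf7, Stard8, Cdhr1, Disp3, Vav2, Zkscan6 and Clmn. Of these, Trim63, a muscle ubiquitin ligase gene, had TATAA with its dominant TSS at the annotated start base, and Cdhr1, a photoreceptor cadherin gene, had TATAA with a dominant TSS 9 bp upstream. Nxf7, Zkscan6 and Clmn had no TATAA, and the others had no complete sequence window. Over all sharp clusters with a window the TATAA share was 7.88%. Stard8, the longest, was 4 bp long.

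The dominant TSS was the same base in A1 for 3092 of 3921 sharp clusters (78.9%) and in C7 for 3207 of 3925 (81.7%). It had moved in 21.1% and 18.3%, against 23.8% and 21.1% of all E14 clusters and 20.6% and 18.6% of broad clusters. A narrow cluster has fewer bases for its dominant TSS to move to. The median E14 width was 4 bp for sharp and 32 bp for broad clusters, so like shares do not mean like stability. Of the 829 moves in A1, 364 were by 1 or 2 bp, as were 304 of the 718 in C7. Among 3898 sharp clusters matched in both clones, 2728 (70.0%) kept the base in both, 462 moved in A1 alone and 344 in C7 alone. In 305 (7.82%, against 8.48% of all E14 clusters) both clones had the same new base. These moves had no common direction, with 153 downstream and 152 upstream and a median of 3 bp. Both clones are compared with the same E14 track, so a base unusual in E14 counts as a shared move.

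The largest moves to a shared base were at Slx4ip, a DNA repair partner gene, where the dominant TSS lay 13 bp further upstream in both clones and the width went from 1 bp to 14 bp in each. At Abcf1, Mef2d and Mrtfa it lay 9 bp upstream, and at Cyb5r2, a cytochrome b5 reductase gene, 9 bp downstream. All 4 were 10 bp wide in each line, so the dominant TSS had changed from one edge of the cluster to the other. None of these 4 held TATAA. At Rbbp4, a histone-binding subunit shared by NuRD and other complexes, a 9 bp wide cluster 34 bp upstream of the annotated start had its dominant TSS 8 bp downstream of the E14 base in both clones.

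Sharp clusters of E14 were more often wider than narrower in the clones, as were broad clusters and E14 clusters as a whole. In A1 3144 sharp clusters had the same width (80.2%), 591 were wider and 186 narrower. In C7 3234 had the same width (82.4%), 493 were wider and 198 narrower. Over all matched E14 clusters, 6631 were wider and 3430 narrower in A1, and 6048 and 3459 in C7. For broad clusters these counts were 3307 and 1688 in A1, and 3147 and 1644 in C7. Why wider values were commoner was not tested. Sharp clusters were selected on a narrow E14 width, so the crossing of 10 bp was counted in every direction. Of sharp clusters in E14, 205 were over 10 bp in A1 (5.23%, against 3.72% of all E14 clusters up to 10 bp wide) and 173 in C7 (4.41%, against 3.06%). Most had little room to cross, since 3204 of 3969 were at most 10 bp long in all and over 99% of matches kept their outer bounds. Among those over 20 bp long, 103 of 460 were over 10 bp in A1 and 88 of 460 in C7. In reverse, 125 sharp clusters of A1 (3.25%) and 111 of C7 (2.87%) were over 10 bp in E14. Among those over 20 bp long these were 37 of 391 and 48 of 420. Between the clones, 145 of A1 (3.78%) were over 10 bp in C7 and 163 of C7 (4.23%) were over 10 bp in A1. Each line gives 1 merged value and the sets share most of their clusters, so whether these percentages differ beyond the spread between libraries could not be tested. A1 had 2 libraries and the others 3, and the part of library number or depth in these counts was not tested.

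**Figure D5:**
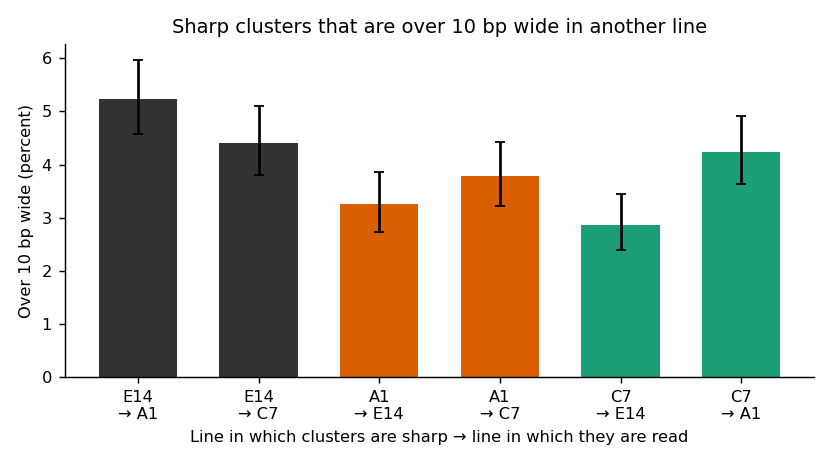
Percent of clusters sharp in 1 line that were over 10 bp wide in another (vertical axis), for the 6 ordered pairs of lines (horizontal axis), with 95% Wilson intervals as error bars, which cover counting error only and no spread between libraries. The bars from E14 into the clones (5.23% and 4.41%) are higher than those from the clones into E14 (3.25% and 2.87%), and the bars between the clones (3.78% and 4.23%) lie between them.

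Sharp promoters over 10 bp wide in both clones numbered 114 of 3898 (2.92%, against 2.09% of all E14 clusters up to 10 bp wide), whereas 39 of 9868 clusters over 10 bp in E14 were sharp in both clones. 3634 were sharp in all 3 lines (93.2%), and clusters at most 10 bp long in all could hardly be otherwise. TATAA was present at 5 of 96 of the 114 with a window (5.21%, Wilson 2.24 to 11.6%) and at 8.20% of those sharp in all 3 lines. The most widened was Mt2, the metallothionein gene printed above with TATAA, which went from 4 bp in E14 to 46 bp in A1 and 38 bp in C7. Wdr73 went from 9 bp to 39 and 43 bp, Nap1l1, a histone chaperone gene, from 10 bp to 34 bp in both clones, Col4a1, a basement membrane collagen gene, from 5 bp to 28 and 29 bp, and Igfbp2, which codes for a binding protein of insulin-like growth factors, from 5 bp to 27 and 29 bp. In all 5 the dominant TSS was the same base in the 3 lines, so the added width lay around an unchanged main start. Each of these clusters was long in E14 already, from 71 bp at Col4a1 to 322 bp at Mt2.

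The promoters that widened are shown because their dominant TSS stayed in place while the width grew. Nap1l1 began with a TOP-like start, and Col4a1 with CA.
Nap1l1 (chr10:111473187-111473236, plus strand): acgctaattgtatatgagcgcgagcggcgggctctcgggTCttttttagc
Col4a1 (chr8:11312740-11312789, minus strand): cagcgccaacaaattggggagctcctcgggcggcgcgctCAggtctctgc
Igfbp2 (chr1:72824451-72824500, plus strand): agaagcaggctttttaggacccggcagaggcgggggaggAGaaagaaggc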

How the data were processed

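CAGE-seq libraries of nuclear RNA were made from wild-type E14 (n = 3), Pwwp2a/b DKO A1 (n = 2) and DKO C7 (n = 3). The authors mapped reads to mm10, merged replicates and used CAGEr for TSS detection, clustering and promoter width. The submitters' processing notes name STAR 2.4.2a, SAMtools 1.3 and bedtools 2.17.0. The deposited tag cluster file used here holds positions on mm10, in 1 track per line, with every score at 0, so depth per cluster is not known from it. Signal tracks that the study describes were not used here. Processed copies of expressed genes, such as those of ribosomal protein genes, can take or hide reads.

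From these positions the dominant TSS, the interquantile region (the longest block of a cluster) and the nearest protein-coding gene start were derived in Python 3.11.15 (SciPy 1.17.1, NumPy 2.4.6). Annotation was GENCODE release 21 for mouse (M21), which counts 21951 protein-coding genes, whereas the study used release 22. Figures were drawn with Matplotlib 3.10.9. Clusters were matched between lines by 1 bp of overlap, strands being equal. Intervals of shares are Wilson intervals at 95%. Clusters are not replicates and no test was run over them. Sequences were stitched from RefSeq promoter windows (GRCm38.p6) and GENCODE transcripts, which shared 114661017 bases and differed at 0. Checks of matching and classification were tested on simulated clusters.

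The members and the 13 gene lists were chosen with earlier results of these data known. Open to naming were Pwwp2a and Pwwp2b, and the first 4 genes of each list with a sharp cluster (name families in alphabetical order). So were the 5 genes with most sharp clusters (ties by name) and the 10 unmatched clusters nearest a gene start. The 5 largest shared moves and the 5 most widened clusters completed the choice. Only some of the list genes are described above, so the examples are a choice from this rule. Sequences were printed for a choice of these.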

Additional observations from a re-analysis of the deposited data

How the results depend on the processing

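The E14 share of sharp clusters (28.6%) moved with every definition tried. A window of 100 bp gave 25.7%, and 29.8% came from 1000 bp. The share was 19.0% with widths up to 5 bp and 36.7% up to 15 bp, 30.03% with any start of a coding transcript, 23.1% by the width of the whole cluster and 22.5% with widths of 3 to 10 bp. The number (3969) was 2418 with a window of 100 bp and 2635 with widths up to 5 bp. The median distance to the start was 2 bp in place of 39 bp when the nearest coding transcript start was used. Matching without widths of 1 bp, chosen after seeing the data, gave 99.4% in A1 and 99.8% in C7. The same dominant TSS within 2 bp gave 88.1% and 89.5%, and with widths of 3 to 10 bp 77.3% and 80.1%. Clusters that crossed 10 bp, 205 in A1 and 173 in C7, numbered 125 and 111 in the opposite direction (sharp in the clone and over 10 bp in E14). With the whole cluster over 20 bp, a limit chosen after seeing the data, they were 103 of 460 in A1 and 88 of 460 in C7. These are fewer clusters but larger shares than 205 of 3921 and 173 of 3925 at any length. The TATAA share (7.88%) was 3.93% around the annotated gene start, where windows covered only 71.8% of clusters so that this check is void. With restrictions chosen after seeing the data it was 18.0% for clusters over 10 bp in all and 4.94% for TATAAA. Among gene lists, a window of 100 bp gave 62.5% for ribosomal protein, 31.2% for heat shock, 6.25% for DNA replication and 20.3% for oxidative phosphorylation genes, and one of 1000 bp gave 87.0% for pluripotency genes. The share over all genes was not worked out for these windows. Counting a gene by its nearest cluster, which gives 21.1% over all genes, gave 60.8% for ribosomal protein, 84.5% for histone, 5.56% for DNA replication and 9.59% for oxidative phosphorylation genes. The causes of these shifts were not tested. The other 41 alternative values stayed within the Wilson interval of the value reported, or, for numbers, within 1.5 times.

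No paired analysis was possible because the authors merged the replicates of each line, and for the same reason leaving out a replicate was not run. Searches for CCAAT and GC-box motifs were void, since windows reaching 100 bases upstream covered 75.7% of sharp clusters. Without tag counts, a width cannot be weighed by its depth.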
